A study of Arabidopsis thaliana with 9 samples.

Results

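The circadian clock genes of Arabidopsis thaliana siliques, the fruits with their developing seeds, were followed across genotypes of ARGONAUTE 3 (AGO3). The set held 10 genes of the 34262 rows in the mRNA table: LHY (AT1G01060), CCA1 (AT2G46830), PRR9 (AT2G46790), PRR7 (AT5G02810), PRR5 (AT5G24470), TOC1 (AT5G61380), GI (AT1G22770), ELF3 (AT2G25930), ELF4 (AT2G40080) and LUX (AT3G46640). They are the textbook core of the clock, matched by locus tag, and all 10 passed the expression filter. The set was selected on their counts in these same 6 mRNA libraries, morning against evening genes in each, so those levels and that contrast are a description without a test.

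Siliques of the Columbia-0 accession were sampled between 1 and 5 days after pollination. The mRNA came from wild-type plants, plants heterozygous for ago3-3 and plants homozygous for ago3-3, each with 2 libraries described as biological samples. Small RNA (sRNA) came from 1 library each of an AGO3 immunoprecipitate, a control immunoprecipitate and total sRNA. The AGO3 immunoprecipitate was from ago3-3 plants carrying pAGO3:FHA-AGO3, a tagged AGO3 construct named for the promoter of AGO3, and the other 2 sRNA libraries were from wild-type plants. Neither the nature of the ago3-3 lesion nor the time of day at collection is given in the sources used here.

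The plant clock is a ring of transcription factors that repress each other in turn over the day. LHY and CCA1, related MYB factors, peak around dawn and repress the evening genes. The pseudo-response regulators PRR9, PRR7, PRR5 and TOC1 then follow in that sequence and repress LHY and CCA1, while GI acts with the F-box protein ZTL on TOC1 and PRR5 protein. At night ELF3, ELF4 and LUX form the evening complex, a repressor of PRR9 among others.

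The mRNA libraries held 30338416 to 36258980 estimated counts. On the first principal component, with 40.5% of the variance, homozygous replicate 2 and wild type replicate 1 lay at 29.9 and 39.3 and the other 4 libraries between -19.3 and -15.5. AGO3 mRNA stood at 30.4 and 17.6 counts-per-million (CPM) in wild type, 12.6 and 12.0 CPM in heterozygotes, and 2.11 and 3.29 CPM in homozygotes, the order that the genotype labels give. Of 8 fruit and ovule markers 7 passed the expression filter, and the carpel gene CRC, at 0 to 0.298 CPM, did not. All 5 seed markers passed. The fruit and ovule markers summed to 608.5 to 626.3 CPM in wild type, 570 to 576.8 CPM in heterozygotes, and 575.6 to 599.1 CPM in homozygotes. Seed markers summed to 188.1 to 220 CPM, 174 to 184.2 CPM and 204.6 to 213.9 CPM in the same order. The 4 pollen markers summed to 135.4 to 165.3 CPM in wild type, 129.9 to 176.3 CPM in heterozygotes, and 65.8 to 98.4 CPM in homozygotes. The 2 petal and stamen markers summed to 87.2 to 106.9 CPM, 79.6 to 86.6 CPM and 79.2 to 79.5 CPM in the same order. The part of fruit, seed, pollen and floral tissue in the clock values was not tested.

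**Figure D1:**
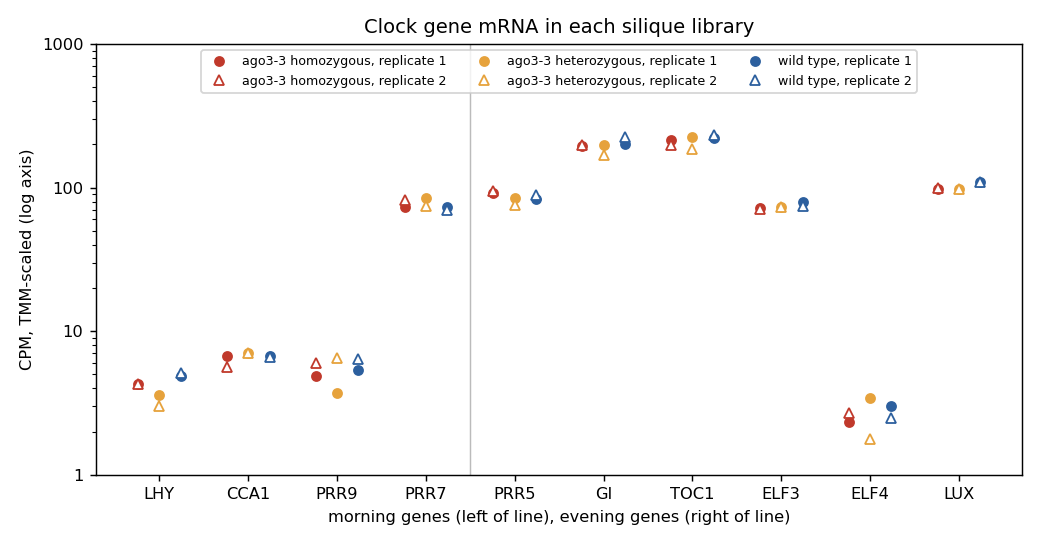
TMM-scaled CPM (log axis) of the 10 clock genes in the 6 mRNA libraries; each point is 1 library, coloured by genotype, with circles for replicate 1 and triangles for replicate 2. LHY, CCA1, PRR9 and ELF4 lay between 1.78 and 7.11 CPM, and the other 6 genes between 70.0 and 232.8 CPM.

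LHY, the dawn repressor, was the clock gene that differed most between genotypes. It stood at 4.89 and 5.12 CPM in wild type, 3.57 and 3.02 CPM in heterozygotes, and 4.26 and 4.30 CPM in homozygotes, on 107 to 181 counts. The genotypes did not overlap: both heterozygous libraries were lowest and both wild-type libraries highest. Lower without overlap than wild type were also 17.8% of all tested genes in heterozygotes and 17.3% in homozygotes. The log2 difference of heterozygous from wild type was -0.60 ± 0.22 (SE, n = 2 against 2), and it did not pass the quasi-likelihood test of edgeR adjusted over all genes (adjusted p = 0.955). Without heterozygous replicate 2 the difference was -0.49. As in any whole-tissue sample, fewer cells of a type and less RNA per cell cannot be told apart.

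CCA1, the close relative of LHY that shares most of its targets, did not follow it. It stood at 6.67 and 6.62 CPM in wild type, 7.11 and 7.05 CPM in heterozygotes, and 6.70 and 5.62 CPM in homozygotes. Heterozygous siliques were highest for CCA1 where they were lowest for LHY. Homozygous replicate 2 alone lay under 6.62 CPM, and with it left aside the 5 libraries spanned 6.62 to 7.11 CPM. The difference of heterozygous from wild type was 0.09 ± 0.18 (log2, SE), within its error.

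Among the pseudo-response regulators, PRR9 is the earliest in the day and here it was the most variable. Its levels were 5.40 and 6.37 CPM in wild type, 3.71 and 6.54 CPM in heterozygotes, and 4.91 and 5.96 CPM in homozygotes. The lowest and the highest library were thus the replicates of 1 genotype, 0.74 apart on the log2 scale. PRR9 lies near CCA1 on chromosome 2, with 3 protein-coding genes between them.

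PRR7, which follows PRR9, was higher in both mutant genotypes than in wild type by small amounts. It stood at 73.2 and 70.0 CPM in wild type, 84.3 and 74.9 CPM in heterozygotes, and 73.6 and 81.7 CPM in homozygotes, so that homozygous replicate 1 and wild type replicate 1 almost met. The log2 differences from wild type were 0.12 ± 0.11 (SE) in homozygous and 0.15 ± 0.11 (SE) in heterozygous siliques, close to their errors.

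PRR5, the afternoon member of the family, was highest in homozygous siliques. Its levels were 82.8 and 89.3 CPM in wild type, 84.7 and 75.7 CPM in heterozygotes, and 92.1 and 94.8 CPM in homozygotes. Heterozygous and wild-type libraries overlapped, and both homozygous libraries lay above them. Of all tested genes 16.8% were higher without overlap in homozygotes than in wild type, and 15.7% than in heterozygotes. Homozygous siliques differed from heterozygous ones by 0.22 ± 0.11 (log2, SE), and from wild type by 0.12 ± 0.11 (log2, SE).

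TOC1, the evening member of the family, and GI were the clock genes with the highest CPM and shared their lowest and highest libraries. TOC1 stood at 223.2 and 232.8 CPM in wild type, 224.9 and 185.5 CPM in heterozygotes, and 213.3 and 199.1 CPM in homozygotes. GI stood at 202.0 and 224.1 CPM, 197.6 and 169.8 CPM, and 196.2 and 199.3 CPM in the same order. Heterozygous replicate 2 was lowest and wild type replicate 2 highest, and the groups of wild type and heterozygotes overlapped for TOC1 but not for GI. Of all tested genes 17.8% were likewise lower without overlap in heterozygotes. Across the 6 libraries, which share their depth and preparation between genes, Pearson's r was 0.86 for TOC1 with GI and 0.89 for LHY with GI. These were the highest values among all pairs of clock genes, given as a description. The lowest was -0.72, for ELF4 with PRR9, and LHY with CCA1 stood at -0.41. The heterozygous difference of TOC1 from wild type, -0.15 ± 0.13 (log2, SE), became -0.02 without heterozygous replicate 2 and -0.29 without heterozygous replicate 1.

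The evening complex held the steadiest clock genes and 1 of the least steady. LUX, its DNA-binding subunit, stood at 108.6 and 109.8 CPM in wild type, 97.2 and 98.1 CPM in heterozygotes, and 97.1 and 99.3 CPM in homozygotes. Replicates of LUX differed by 0.01 to 0.03 on the log2 scale, and all 4 mutant libraries lay below both wild-type ones. Such a lack of overlap, lower, was found for 17.3% of all tested genes in homozygotes and 17.8% in heterozygotes. The gene AT3G46650, which overlaps LUX in the annotation, had only 1.27 to 4.14 CPM. The difference from wild type was -0.15 ± 0.09 (SE) in homozygous and -0.16 ± 0.09 (SE) in heterozygous siliques, 2 comparisons that share the wild-type libraries (edgeR adjusted p = 0.882 and 0.955).

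ELF3, the scaffold of the complex, stood at 79.1 and 73.8 CPM in wild type, 72.8 and 73.3 CPM in heterozygotes, and 72.6 and 71.1 CPM in homozygotes, the smallest spread of the 10 genes (SD 0.05 on the log2 scale). Wild type replicate 1 was the only library above 74 CPM. ELF3 overlaps ALPHA-VPE, a vacuolar processing enzyme gene, in the annotation; that gene stood at 2.97 CPM in wild type replicate 1, its lowest library, and at up to 19.7 CPM elsewhere, and its part in the ELF3 values was not tested. ELF4, a small protein that binds ELF3, had only 63 to 120 counts, at 3.00 and 2.47 CPM in wild type, 3.42 and 1.78 CPM in heterozygotes, and 2.32 and 2.70 CPM in homozygotes. The heterozygous replicates again enclosed all other libraries, 0.79 apart on the log2 scale.

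The evening genes other than ELF4 stood far above the dawn genes in every library. To set genes beside each other, CPM were divided by the length of the gene in kb, introns included. On this scale TOC1 led at 51.7 to 64.9 CPM per kb, then PRR5 (32.3 to 40.5), GI (28.1 to 37.1) and LUX (24.8 to 28.0), in the same order in all 6 libraries. PRR7 (16.1 to 19.4) and ELF3 (16.2 to 18.1) came next, with ELF3 above PRR7 in both wild-type libraries and PRR7 above ELF3 in all 4 mutant libraries, followed by ELF4 (2.69 to 5.19). CCA1 (1.69 to 2.14) and PRR9 (1.44 to 2.54) changed places between replicates of both mutant genotypes, and LHY was last at 0.67 to 1.14 CPM per kb. Per kb, TOC1 exceeded CCA1 24.4 to 32.8 times and LHY 57.1 to 79.2 times. LUX exceeded its partner ELF4 4.78 to 9.30 times, and PRR7 exceeded PRR9 6.50 to 13.4 times. Apart from those 2 pairs of neighbours, the order was the same in all 6 libraries.

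Morning and evening genes were next followed from library to library. LHY, CCA1, PRR9 and PRR7 were taken as morning genes and the other 6 as evening genes, and each gene's log2(CPM + 0.5) was centred on its mean over the libraries. The morning mean minus the evening mean was -0.03 and 0.02 in wild type, -0.16 and 0.16 in heterozygotes, and -0.01 and 0.01 in homozygotes. With these genes the heterozygous libraries stood apart, in opposite directions, and the size of this rested largely on PRR9: without it they lay at -0.04 and 0.07. With LHY and CCA1 alone against TOC1, GI, ELF4 and LUX they lay at -0.14 and 0.07, and the homozygous libraries at 0.08 and -0.07, so that heterozygous replicate 2 no longer stood apart. In heterozygous replicate 1 the morning genes lay at -0.11 and the evening genes at 0.05. In heterozygous replicate 2 the evening genes lay at -0.18 and the morning genes at -0.02, and 5 of the 10 genes (LHY, TOC1, PRR5, GI and ELF4) had their lowest level there. The SD between replicates was 0.23 in heterozygotes, against 0.04 in wild type and 0.02 in homozygotes, and the means of the genotypes were all within 0.01 of 0.

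**Figure D2:**
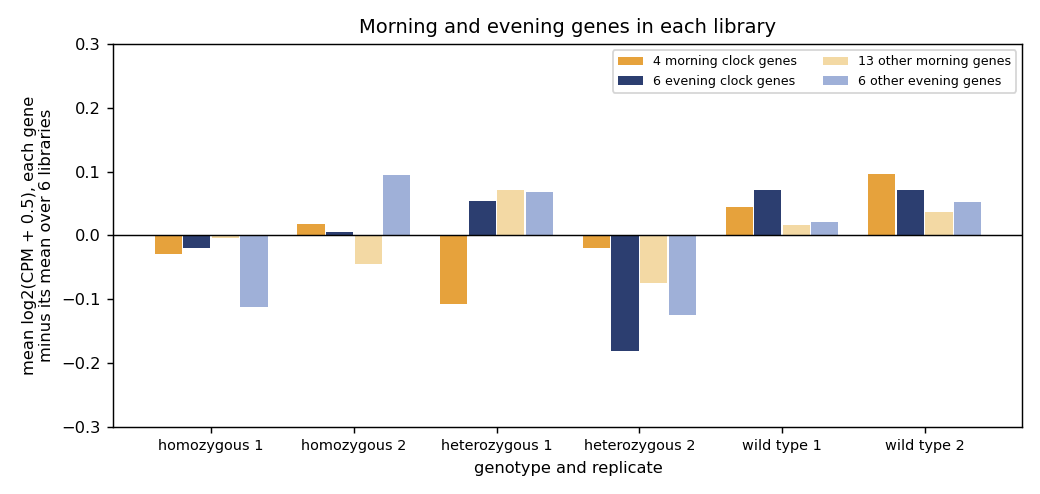
Mean centred log2(CPM + 0.5) of morning and evening genes in each of the 6 libraries, for the 10 clock genes (dark bars) and for other clock-controlled genes (pale bars). The longest bar is that of the 6 evening clock genes in heterozygous replicate 2, at -0.18.

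Genes outside the set were followed in the same way. For 13 other morning genes (among them RVE8, LNK1, CDF1 and COL2) and 6 other evening genes (PRR3, FKF1, BOA, GRP7, GRP8 and JMJD5), the morning mean minus the evening mean was 0.00 in heterozygous replicate 1 and 0.05 in heterozygous replicate 2. These values depended on single genes, among them RVE2, a MYB relative of LHY chosen after its values were seen. RVE2 had its highest level, 50.6 CPM, in heterozygous replicate 1 and its lowest, 16.2 CPM, in heterozygous replicate 2, which lay 0.60 above and 1.02 below its mean on the log2 scale. Without RVE2 the other genes gave -0.04 and 0.13 in the heterozygous libraries, the same directions as the clock genes. Without RVE8 instead, heterozygous replicate 1 stood at 0.04, so its direction depended on the gene left out. Without COL1, heterozygous replicate 2 stood at 0.01. With all 19 genes the value was 0.11 and -0.14 in the homozygous libraries, and 0.08 and -0.12 without RVE2, where the 10 clock genes gave -0.01 and 0.01. In heterozygous replicate 2 the other evening genes lay at -0.12. The 13 other morning genes lay at -0.08 there, and the 12 without RVE2 at 0.00. In homozygous replicate 1 the other evening genes lay at -0.11, so such a level was not particular to heterozygous replicate 2.

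By their medians, replicates of the clock genes lay closer together than those of all tested genes in wild-type and homozygous siliques, and not in heterozygous ones. The median gap between replicates was 0.07 in homozygous and 0.08 in wild-type siliques on the log2 scale, against 0.18 and 0.20 over all 22702 tested genes. In heterozygous siliques it was 0.19 for the clock genes and 0.16 over all tested genes. The genotypes differ in this background. Replicates lay apart on the first principal component in wild type (39.3 and -15.7) and homozygotes (-18.6 and 29.9), and together in heterozygotes (-15.5 and -19.3). All tested genes were also not matched to the clock genes for level. Over the 6 libraries the clock genes had a median SD of 0.12 (log2) against 0.18 for all tested genes. The 6 genes above 50 CPM had SDs of 0.05 to 0.13 and the 4 genes below it 0.11 to 0.28.

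Homozygous siliques were compared with wild type to ask whether clock transcripts differ when both copies of AGO3 carry the ago3-3 allele. Of the 10 genes 2 were higher and 8 lower, where 51.7% and 48.3% of all tested genes were, with log2 differences between -0.23 (LHY) and 0.12 (PRR5) and a median of -0.11, beside 0.01 over all tested genes. The median absolute difference was 0.12 for the clock genes and 0.15 over all tested genes. None passed edgeR's test over all genes, where 0.0% of genes were called (smallest adjusted p of the 10 genes 0.882). AGO3 itself, at -3.15 ± 0.31 (log2, SE), did not pass it either (edgeR adjusted p = 0.142). The absence of a call thus does not show that clock genes were unchanged. None of the 10 had an unadjusted p under 0.05 (2.13% of all tested genes, higher, and 3.57%, lower). DESeq2 called 0.469% of the 16195 genes to which it gave an adjusted p, and no clock gene. It gave no adjusted p for LHY and ELF4. The groups did not overlap for 5 genes that were lower (LHY, TOC1, GI, ELF3 and LUX), where 17.3% of all tested genes did so, and for 2 that were higher (PRR5 and PRR7), where 16.8% did. With 2 against 2 libraries an exact permutation test of 1 gene cannot go below p = 0.333.

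Heterozygous siliques were compared with wild type in the same fit. Again 2 genes were higher and 8 lower, as were 49.4% and 50.6% of all tested genes. They lay between -0.60 (LHY) and 0.15 (PRR7), with a median of -0.13 beside 0.00 over all tested genes. GI was at -0.21 ± 0.12 (log2, SE), which became -0.11 without heterozygous replicate 2 and -0.13 without wild type replicate 2. None passed edgeR's test, which called 0.0% of genes. DESeq2 called 0.229% of the 7435 genes to which it gave an adjusted p, and no clock gene. It gave no adjusted p for LHY, CCA1, PRR9 and ELF4. In edgeR LHY was the 1 gene with an unadjusted p under 0.05, lower, as were 2.63% of all tested genes, while 1.8% were higher. LHY, GI, ELF3 and LUX were lower without overlap, as were 17.8% of all tested genes, and CCA1 and PRR7 were higher without overlap, as were 16.4%.

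Homozygous siliques were also compared with heterozygous ones, which uses the mutant libraries again and no wild-type library. Here 6 genes were higher and 4 lower, as were 51.7% and 48.3% of all tested genes. They lay between -0.20 (CCA1) and 0.38 (LHY, SE 0.22), with a median of 0.01 beside 0.01 over all tested genes. edgeR called 0.0% of all genes and none of the 10. None had an unadjusted p under 0.05 (1.42% of all tested genes, higher, and 1.86%, lower). DESeq2 called 0.112% of the 20575 genes to which it gave an adjusted p, and no clock gene. LHY and PRR5 were higher without overlap, as were 15.7% of all tested genes, and CCA1 and ELF3 lower, as were 14.9%. CCA1 was at -0.08 without homozygous replicate 2. LUX, lower than wild type in each mutant genotype by its fitted values, differed between the mutants by 0.01 ± 0.09 (log2, SE). For TOC1 the same difference, 0.01 ± 0.13, was the average of heterozygous replicates that lay apart, and it became 0.14 without replicate 1 and -0.13 without replicate 2 of that genotype.

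**Figure D3:**
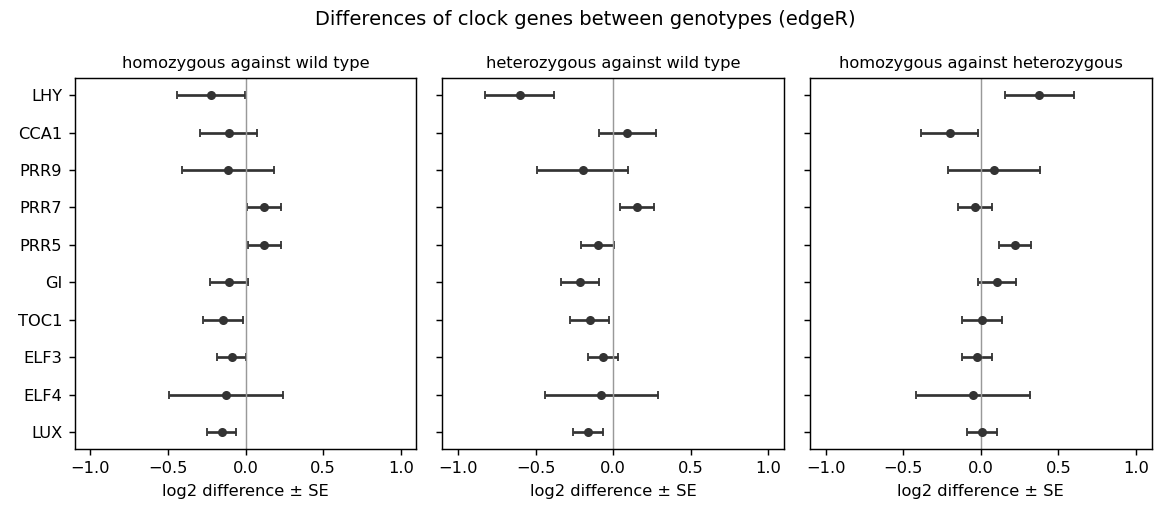
Log2 differences of the 10 clock genes in the 3 comparisons, from edgeR fitted to all 6 libraries; points are fitted values and bars 1 SE. The point farthest from 0 is LHY in heterozygous against wild-type siliques, at -0.60, and no gene passed the test over all genes.

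The rest of the clock and its surroundings gave no call in edgeR or DESeq2 either. In each comparison edgeR called 0.0% of all tested genes, so no list could give a call there. DESeq2 called 0.469%, 0.229% and 0.112% of the 16195, 7435 and 20575 genes to which it gave an adjusted p. These are homozygous against wild type, heterozygous against wild type and homozygous against heterozygous. A gene without an adjusted p could not be called. Of 26 other clock genes, all tested in edgeR, 11 were higher and 15 lower in homozygous than in wild-type siliques (median log2 difference -0.02). In heterozygous siliques 12 were higher and 14 lower than in wild type (-0.04). BOA, a close relative of LUX, was the only member with an unadjusted p under 0.05 in any comparison, homozygous against wild type (edgeR adjusted p = 0.862), where 3.57% of all tested genes were lower and 2.13% higher at that threshold. It stood at 21.7 and 22.3 CPM in wild type, 19.4 and 17.3 CPM in heterozygotes, and 15.1 and 18.1 CPM in homozygotes. Like LUX, BOA was thus lower in all 4 mutant libraries, by -0.40 ± 0.14 and -0.26 ± 0.14 (log2, SE) in homozygous and heterozygous siliques. Of all tested genes 17.3% and 17.8% were lower without overlap in these 2 comparisons, which share the wild-type libraries. RVE8, an activator of evening genes, was 0.57 ± 0.33 (log2, SE) higher in homozygous than in heterozygous siliques. LNK4, a relative of the RVE coactivators LNK1 and LNK2, was 0.33 ± 0.19 higher in heterozygous siliques than in wild type.

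Among 12 clock output genes 5 were higher and 7 lower in each of the 3 comparisons, with medians of -0.10, -0.06 and -0.03 (log2) for homozygous against wild type, heterozygous against wild type and homozygous against heterozygous. COL1, a dawn-peaking relative of the flowering gene CO, stood at 8.30 and 9.20 CPM in wild type, 10.1 and 11.7 CPM in heterozygotes, and 8.16 and 6.54 CPM in homozygotes. Its difference between homozygous and heterozygous siliques, -0.57 ± 0.18 (log2, SE), was the only one of the list with an unadjusted p under 0.05 (edgeR adjusted p = 1), as had 1.86% of all tested genes, lower, and 1.42%, higher. Its relative COL2 differed by -0.29 ± 0.19 in the same comparison, and the growth factor gene PIF4 by -0.36 ± 0.21 between homozygous and wild-type siliques. Of 10 light input genes 7 were higher and 3 lower than wild type in each mutant genotype, with medians of 0.10 and 0.08. HY5 (-0.28 ± 0.20), DET1 (-0.20 ± 0.10) and the blue light receptor gene CRY1 (0.18 ± 0.10) had the largest differences, all in heterozygous siliques against wild type.

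Genes whose pattern over the 6 libraries was most like that of the clock genes were sought among 2684 tested genes whose mean log2 CPM reached 1 and whose SD reached 0.3. Closest to the mean of LHY and CCA1 were AT1G74675 (Pearson's r 0.99), AT5G50050 (0.97), AT1G30250 (0.95), the cold-regulated gene COR15B (0.95) and AT5G62210 (0.95). COR15B ran from 40.3 CPM in heterozygous replicate 2 to 126.9 CPM in wild type replicate 2. LHY and CCA1 themselves had an r of -0.41 and SDs of 0.25 and 0.11 (log2), so their mean followed LHY more than CCA1. Closest to the mean of TOC1, GI, ELF4 and LUX were AT4G34550 (0.97), the glutathione transferase gene GSTF14 (0.96), AT1G77650 (0.96), AT5G37560 (0.96) and the calmodulin-like gene CML42 (0.94). All 10 were lowest in heterozygous replicate 2, as were both mean profiles they were picked to follow, so the choice itself largely fixed this. Over 6 points that share their libraries such values of r are a description only, and 14 and 9 of the screened genes exceeded 0.9.

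The sRNA libraries were examined for reads over the clock genes, a readout on which the set was not chosen. Reads were summed over the 500 bp windows that touch each gene and given as reads-per-million (RPM), and intervals are exact binomial 95% intervals for counting error only, since each library had no replicate. sRNA was sparse over most of the set: 9 of the genes held 2 to 95 total sRNA reads each out of 40262802, and PRR7 held 2508. None of the 81 windows met a ratio of RPM plus 1 of at least 4 between the AGO3 immunoprecipitate and the control, as did a window of 1.21% of 27444 protein-coding genes. That measure could hardly have been met here: it needs at least 112 AGO3 reads in a window, and 80 of the 81 windows held at most 27, so the absence of a call says nothing about them. Of the protein-coding genes 11.0% had a window with that many reads. Against total sRNA no window met it either, where 1.77% of protein-coding genes had one.

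Over whole genes the AGO3 immunoprecipitate held less sRNA than the control for 9 of the 10. PRR5 had the lowest ratio, 0.155 (interval 0.0842 to 0.270, 16 and 71 reads), then ELF4 at 0.230 on 3 and 9 reads and PRR9 at 0.258 (0.168 to 0.389). The median over protein-coding genes was 0.590, and 75.3% of those with control reads lay below 1, so a ratio below 1 was the common case. LHY at 0.956 (0.652 to 1.41) and LUX at 0.796 (0.524 to 1.21) had intervals that include 1. CCA1 was the 1 gene above it, at 2.00 (1.20 to 3.46), with 61 AGO3, 21 control and 54 total reads in the 7 windows from 19245501 to 19249000 on chromosome 2 (TAIR10). It became 1.41 (0.819 to 2.50) with only windows wholly inside the gene and 1.36 (0.965 to 1.95) with 1 kb added on either side, and both intervals include 1. Against total sRNA the ratio was 2.68 (1.587 to 4.685) for LUX, 1.985 (1.086 to 3.744) for PRR9 and 1.94 (1.28 to 2.96) for LHY. ELF3 was at 1.78 (1.23 to 2.61) and TOC1 at 1.693 (1.115 to 2.60). PRR7 lay below 1, at 0.374 (0.346 to 0.404), and the intervals of CCA1, PRR5, GI and ELF4 included 1. No median over protein-coding genes stands beside this ratio.

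PRR7 owed its reads to 1 window, chromosome 5 from 642001 to 642500, with 818 AGO3, 1463 control and 2437 total reads. That window also holds a tRNA gene, AT5G02815. The other 9 windows of PRR7 held 48 AGO3, 89 control and 71 total reads, at a ratio of 0.372 (0.256 to 0.533), close to the 0.384 of the whole gene. That ratio too leaned on 1 window, from 641001 to 641500, which held 41 of those control reads and 0 AGO3 reads.

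**Figure D4:**
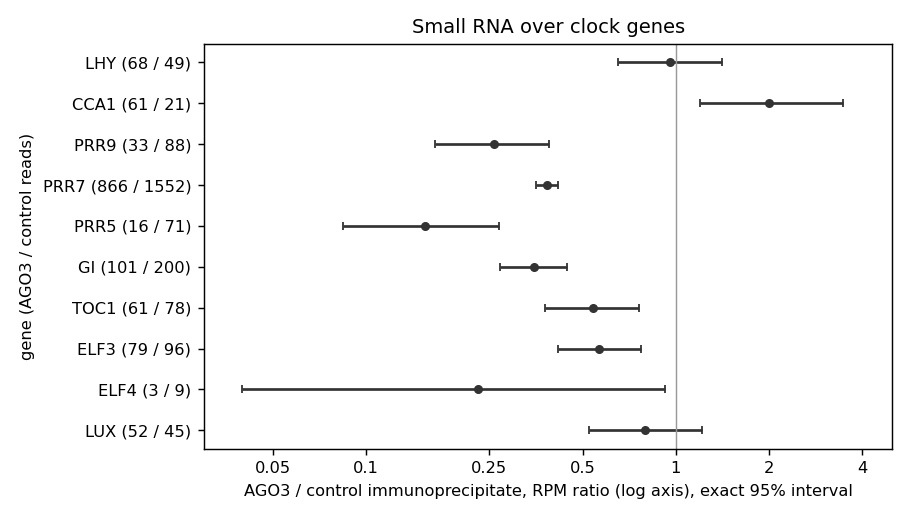
Ratio of sRNA in the AGO3 immunoprecipitate to the control over each clock gene, in RPM (log axis), with exact 95% binomial intervals; the reads of both libraries stand beside each gene. CCA1 at 2.00 is the only gene above 1, and 9 genes lie between 0.155 and 0.956.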

How the data were processed

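The deposited mRNA table held estimated counts by the authors, 1 per gene and library and without depth scaling; 7.88% of its 205572 values, and 16 of the 60 values of the clock genes, were not whole, as when a read is divided among genes. Bowtie, HISAT2, featureCounts and the build TAIR10 are named in the submitters' processing notes. Their versions and the strand setting are not stated there, so overlapping genes cannot be told apart. The deposited sRNA table held read counts per 500 bp window, per the file headers, with 37189850 AGO3, 25613847 control and 40262802 total reads.

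Estimated counts were rounded, and edgeR 4.0.16 (quasi-likelihood test, TMM, limma 3.58.1, R 4.3.3) was fitted to all 6 libraries, with 22702 genes tested and Benjamini-Hochberg adjustment at 0.05. CPM are TMM-scaled. SE is the log2 difference divided by the root of F. DESeq2 1.42.0 was the alternative. The edgeR script was tested on simulated data. At the depths found, 3 counts equal 0.0827 to 0.0989 CPM. Gene lengths and positions come from the RefSeq annotation of TAIR10.1, used to place genes at windows; 326 miRNA genes placed in this way had a median of 278 total reads, and 4 when moved by 2500 bp.

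The clock genes and the lists (26 other clock, 12 output and 10 light input genes, markers) were chosen with earlier results of these data known. From each list the rule names members past the test or, with none, the 3 with the largest log2 difference whose mean log2 CPM reached 1, and the 5 genes most alike per profile. Replicates are biological samples per the series design text. Figures were drawn with matplotlib 3.10.9, and intervals computed with scipy 1.17.1 in Python 3.11.15.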

Additional observations from a re-analysis of the deposited data

Results flagged for a closer look

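CCA1 was singled out because sRNA over the gene, a readout outside the mRNA comparisons, was higher in the AGO3 immunoprecipitate than in the control, at a ratio of 2.00 (1.20 to 3.46). The counts behind it were 61 and 21 reads in 1 library each. The ratio was 1.41 (0.819 to 2.50) with only windows wholly inside the gene, 1.36 (0.965 to 1.95) with 1 kb added on either side, and 1.76 (1.05 to 3.04) with RPM computed without the 100 most read windows. Over total sRNA the ratio was 1.22 (0.834 to 1.80), below those of LUX, PRR9, LHY, ELF3, TOC1 and ELF4. It was 1 of 10 genes examined, and it has no replicate check.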

How the results depend on the processing

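Over all genes, edgeR's count of 0 calls became 76, 17 and 23 with DESeq2 for homozygous against wild type, heterozygous against wild type and homozygous against heterozygous, and 4, 0 and 0 without a filter on low counts. Leaving out 1 library each gave 0 to 3, 0 to 4 and 0 to 1, and leaving out homozygous replicate 2 and wild type replicate 1 together 54, 22 and 5. No clock gene was among the calls under any of the 12 alternatives. Of the 360 differences of clock genes recomputed, 337 kept their sign and 348 moved by less than 1 SE. The 12 that moved more were TOC1, PRR9 and ELF4 without 1 of the heterozygous libraries. ELF4 in heterozygous against wild-type siliques was -0.61 without replicate 1 and 0.32 without replicate 2 of that genotype, and PRR9 0.16 and -0.66. With the replicate number as a block edgeR called 0 genes in each comparison, and unadjusted p under 0.05 fell from 1293, 1006 and 745 genes to 925, 679 and 534. Deviations of same-numbered libraries correlated at -0.0491 (homozygous and heterozygous), -0.42 (homozygous and wild type) and -0.0586 (heterozygous and wild type). These values do not settle whether the numbers mark shared batches. With 1 of the 10 genes left out the morning minus evening value ran from -0.25 to -0.04 in heterozygous replicate 1 and from 0.07 to 0.29 in heterozygous replicate 2, both nearest 0 without PRR9. RVE2 was left out of the other genes after the data were seen. For sRNA, the count of clock genes with an enriched window was 0 under the 3 alternatives, where too few reads put the threshold out of reach of nearly all windows. The ratio of CCA1 was 1.36 to 1.76 under them, against 2.00, and that of LUX was 2.28 with only windows wholly inside the gene, against 0.796, and ELF3 was 0.353 against 0.567; PRR9 was 0.793 with 1 kb added on either side, against 0.258. The 63 to 181 counts of LHY and ELF4 limit what could be detected for them.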
